A study of Mus musculus with 800 samples.

Results

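Retinal ganglion cells (RGCs) labelled by Sert-Cre were divided by their own level of Pou4f1, the transcription factor also called Brn3a, and the rest of the transcriptome was compared between the ends of that division. Eligible were Tomato+ cells with at least 1000 genes detected, a mitochondrial share of counts of 20% or less and fewer than 100 counts of Hbb-y, an embryonic globin. Members were chosen by their measured Pou4f1 counts. Cells with at least 20 counts formed the Pou4f1-high side (79 cells with 20 to 99 and 39 with 100 or more, together 36.9% of the 320 eligible cells). Cells with 0 counts formed the Pou4f1-absent side (87 cells, 27.2%). The 73 cells with 1 to 4 counts and the 42 with 5 to 19 were left out, and the whole series holds 800 cells.

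The cells came from embryonic retinas of C57BL/6 mice at stage E15.5 carrying Sert-Cre, which expresses Cre recombinase from the serotonin transporter gene Slc6a4, and were sorted as Tomato+ or Tomato-. All cells of both sides shared this genotype, stage and label. Per the labels, 30 retinas were pooled and dissociated with papain before flow cytometry, for which no gate is given. The count table has 0 rows for Cre or Tomato, so the label itself could not be checked against a transcript. A Cre-dependent label reports past as well as present activity of the driver, and only cells in which the driver has been active can carry it. The labels tie no cell to an animal. Each side is thus part of 1 pool without replicates, and no test, standard error or p-value is given. Title numbers 1 to 10 of the Tomato+ cells serve to show how values vary within that pool. What a title number stands for is not stated, so the SD over title numbers is a description of spread only.

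RGCs are the output neurons of the retina. The POU4F family holds Pou4f1, Pou4f2 (Brn3b) and Pou4f3 (Brn3c), POU-domain factors that act with the LIM-homeodomain factors Isl1 and Isl2 in RGC differentiation and survival. In the adult mouse most image-forming RGCs carry Brn3a, whereas RGCs with the T-box factor Eomes, which include the melanopsin RGCs, mostly lack it. At the optic chiasm most mouse RGC axons cross, Isl2 marks crossing RGCs, and Slc6a4, Ephb1 and Zic2 belong to RGCs that project ipsilaterally.

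The median Pou4f1 count of the high cells was 65.5, and this value, on which the members were selected, is a description only. At the threshold, 14 cells held 20 to 24 counts and 6 cells outside it held 15 to 19. In Tomato- cells that passed a marker rule for progenitors, 26.8% had at least 1 Pou4f1 count, 7.09% at least 5 and 3.94% at least 20, at a median total of 230294 counts. Counts of 1 to 4 therefore lay within a level also met in progenitor-marker cells.

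**Figure D1:**
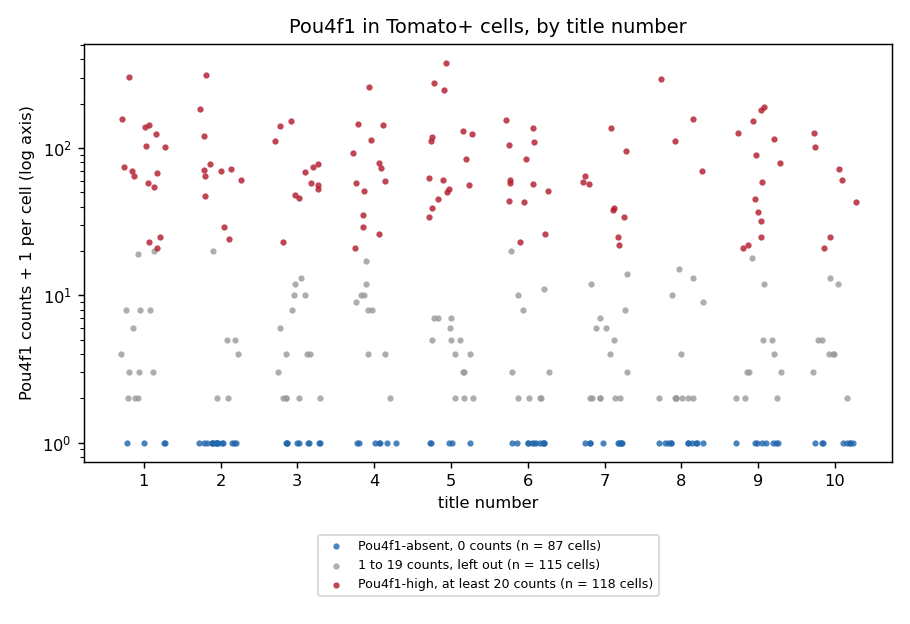
Pou4f1 counts plus 1 per Tomato+ cell on a log axis (y) by title number (x). Each point is 1 cell, coloured as Pou4f1-high, left out or Pou4f1-absent (87 cells), and every title number holds cells of both sides.

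Both sides carried an RGC transcriptome. At least 4 of the 8 genes Pou4f2, Isl1, Sncg, Nefl, Nefm, Rbpms, Slc17a6 and Ebf3 reached 5 counts in all of the high cells and in 82 of 87 absent cells (94.3%, exact 95% interval 87.1 to 98.1). Over 12 RGC markers the summed level was 21242 CPM (counts of a gene per 1000000 summed counts of the side) in high and 19705 CPM in absent cells. Isl1 was at 778 and 781 CPM, and Sncg, gamma-synuclein, at 7119 and 5890 CPM. Cells without Pou4f1 counts thus held RGC markers at levels near those of the high side.

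The absent cells were somewhat shallower. Total counts per cell ran from 25164 to 644293 with a median of 284146 in high cells, and from 9653 to 535081 with a median of 240995 in absent cells. Median mitochondrial shares were 5.31% and 6.24%, and medians of genes detected were 4634 and 4226. Shares of cells are therefore also given after thinning each cell to 101211 counts, which left out 5 high and 16 absent shallower cells. Within title numbers the high side held 4 to 16 cells and the absent side 4 to 15. Title number 8 had the lowest median total (188752 counts) and the highest median mitochondrial share (8.16%), and 14.8% of its cells were high against 48.5% in title number 1. The 13 progenitor and cell cycle genes summed to 464 CPM in high cells (311.2 to 766 over title numbers) and to 710 CPM in absent cells (308.1 to 2416). Their part in the results was not tested. Microglia markers summed to 0.52 and 25.9 CPM, endothelial markers to 5.01 and 10.6 CPM, and 8 photoreceptor markers to 63.6 CPM (0.66 to 303.004 over title numbers) and 73.6 CPM (0.49 to 701), with Rcvrn at 0 counts on both sides.

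No doublet caller was run, since each library is labelled as 1 cell. One high and 1 absent cell held at least 5 counts in 4 or more of 8 progenitor genes, and 0 pairs of cells had identical counts.

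Against this common background few genes separated the sides. Of 7764 genes with a described level (a mean over the sides of at least 10% of cells with at least 5 counts), 81.4% lay within 0.5 and 97.9% within 1 of no difference on the log2 scale. Ratios are log2 of high over absent CPM with a pseudocount of 10 CPM, which understates the ratio of low genes. A gene was past the fold when its log2 ratio was at least 1 in size and its share of cells with at least 5 counts, after thinning, differed the same way by 10 percentage points or more. Past the fold were 63 genes higher in high cells (0.811%) and 26 lower (0.335%).

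**Figure D2:**
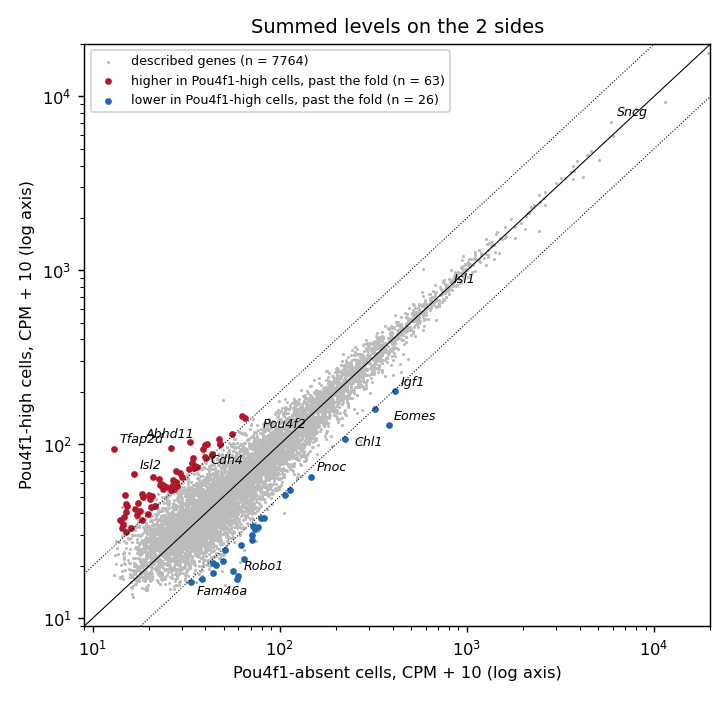
Summed CPM plus 10 in Pou4f1-high (y) and Pou4f1-absent cells (x), both on log axes, for 7764 described genes. The solid line marks equality and the dotted lines a 2-fold difference, with 63 genes past the fold higher and 26 lower, Tfap2d and Isl2 among the first and Eomes and Robo1 among the second.

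Tfap2d, a transcription factor of the AP-2 family, had the highest ratio. Its summed level was 84.2 CPM in high cells (exact Poisson 95% interval 81.2 to 87.3) and 2.95 CPM in absent cells (2.25 to 3.80). All intervals of CPM cover counting error only. Those of shares of cells are exact binomial intervals over the cells of the pool, and neither kind covers spread between animals. Over title numbers Tfap2d ran from 4.17 through a median of 79.3 to 327.96 CPM in high cells, and from 0 through 0.44 to 14.2 CPM in absent cells. The ranges overlapped. Within each of the 10 title numbers the high cells had the higher level, and the log2 ratio was 2.86 (SD over title numbers 1.34). Genes with the highest and lowest ratios were picked from these same cells. Their direction within title numbers is therefore a description only, here and below. At least 5 counts were present in 28 high cells (23.7%, 16.4 to 32.4) and in 1 of 87 absent cells (1.15%, 0.03 to 6.24), or 23.01% and 1.41% after thinning. Tfap2d thus belonged to a minority of the high cells. In progenitor-marker cells 2.36% reached 5 counts.

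Isl2 followed with 56.99 CPM (54.5 to 59.6) in high and 6.59 CPM (5.52 to 7.80) in absent cells, a log2 ratio of 2.01 (SD 2.12). Title numbers ran from 0 through 51.6 to 145.4 CPM on the high side and from 0 through 0 to 58.98 CPM on the absent side. They overlapped. High cells were above absent cells in 7 title numbers and below in 1, and title numbers 8 and 10 had 0 counts on both sides. In title number 6, where they were below, 1 absent cell held 97.8% of all absent Isl2 counts. At least 5 counts were found in 23 high cells (19.5%, 12.8 to 27.8) and in 1 absent cell, and in 3.15% of progenitor-marker cells. Without title number 4, 5 or 9 Isl2 was no longer called past the fold, although over the 10 omissions its ratio ran from 1.70 to 2.84. The call was also lost with cells matched on total counts (2.304) and with all cells thinned before summing (2.03). It was lost with the high side at 5 or more Pou4f1 counts (1.81) as well. With thinning, the shares of 15.9% and 1.41% still differed by more than 10 points, but their mean lay under the described level of 10%. Which part of the rule was missed in the other settings is not given.

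Pou4f3, the third POU4F gene, was also higher in high cells. With a mean share just under the described level it fell outside the 7764 genes, and it is named here after its values were seen. It stood at 38.02 CPM (35.999 to 40.13) in high and 0.25 CPM (0.08 to 0.57) in absent cells. Over title numbers the high side ran from 3.57 through 40.9 to 165.04 CPM and the absent side from 0 through 0 to 2.05 CPM. They did not overlap, though the gap was narrow, and the log2 ratio was 2.23 (SD 1.01). The share of all genes with ranges apart is not given, so no weight is put on that gap. At least 5 counts were present in 23 high cells (19.5%, 12.8 to 27.8) and in 0 of 87 absent cells, where a limit of 3 cells allows a share of up to 3.45% and the exact 95% interval one of up to 4.15%. How reads from the conserved POU domain were assigned among the 3 genes is not given, so a shared origin of some Pou4f3 and Pou4f1 counts was not tested.

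Pou4f2 did not follow its relatives. It stood at 92.8 CPM in high and 141.1 CPM in absent cells, a log2 ratio of -0.56 (SD 1.05) that did not pass the fold. Title numbers ran from 53.1 through 76.7 to 160.65 CPM in high cells and from 26.8 through 109.5 to 243.3 CPM in absent cells, overlapping widely, with high cells lower in 8 of 10. At least 5 counts were present in 61.02% and 59.8% of the cells. Isl1 had a log2 ratio of -0.01 and was at 5 counts or more in 96.6% and 87.4%.

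The upstream regions of the described genes that led in each direction and are transcription factors are shown because the members were divided by a DNA-binding factor. Each line gives the 250 bases before the annotated start on the plus strand, from RefSeq on GRCm38.p6. They are chr1:19102772-19103021 for Tfap2d (the first of 3 windows), chr9:55540899-55541148 for Isl2 and chr9:118477939-118478188 for Eomes, with any copy of ATTAAT, the core of the site that POU4F factors are known to bind, in capitals.
Tfap2d: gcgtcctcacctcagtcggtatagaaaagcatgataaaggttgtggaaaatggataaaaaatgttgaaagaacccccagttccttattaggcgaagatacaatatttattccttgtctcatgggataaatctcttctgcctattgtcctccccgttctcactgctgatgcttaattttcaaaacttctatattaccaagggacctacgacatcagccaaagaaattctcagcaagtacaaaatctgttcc
Isl2: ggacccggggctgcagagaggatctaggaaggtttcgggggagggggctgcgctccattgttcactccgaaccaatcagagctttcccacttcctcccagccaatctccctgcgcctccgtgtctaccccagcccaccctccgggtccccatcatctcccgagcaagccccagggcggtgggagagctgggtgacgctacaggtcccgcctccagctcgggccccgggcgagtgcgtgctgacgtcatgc
Eomes: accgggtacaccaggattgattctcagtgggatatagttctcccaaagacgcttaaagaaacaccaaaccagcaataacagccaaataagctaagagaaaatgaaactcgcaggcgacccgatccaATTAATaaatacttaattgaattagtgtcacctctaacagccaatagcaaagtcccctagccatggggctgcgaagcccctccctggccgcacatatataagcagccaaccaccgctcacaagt
ATTAAT reads the same on both strands, so 1 search covers both. It was present in the window of Eomes and not in those of Tfap2d and Isl2, and in 1441 of 32851 windows of that length (4.39%). The longer form ATAATTAAT, which contains ATTAAT, was searched on both strands and is in 85 windows (0.259%), none of them among these 3 genes. These are letters in a window, not sites shown to be bound.

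Eomes, the T-box factor, was among the lower genes. It stood at 118.4 CPM (114.8 to 122.03) in high and 370.96 CPM (362.6 to 379.4) in absent cells, a log2 ratio of -1.57 (SD 2.22). Title numbers ran from 1.32 through 109.8 to 277.6 CPM on the high side and from 12.7 through 358.5 to 684 CPM on the absent side, with wide overlap, and high cells were lower in 8 of 10. The share of cells with at least 5 counts differed less than the level did. It was 30.5% (22.4 to 39.7) in high and 39.1% (28.8 to 50.1) in absent cells, and 26.6% and 39.4% after thinning. No single title number decided the call, but without title numbers 8 and 10, the pair with the highest mitochondrial shares, the share difference fell short and the ratio was -1.34.

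Robo1, the Slit receptor of growing axons, was lower in the high cells of every title number. Its level was 7.57 CPM (6.68 to 8.54) in high and 49.8 CPM (46.8 to 52.98) in absent cells, a log2 ratio of -1.77 (SD 0.93). Title numbers ran from 0.26 through 5.52 to 18.4 CPM and from 15.02 through 42.03 to 146.8 CPM, overlapping only at the edge. At least 5 counts were present in 14 high cells (11.9%) and 24 absent cells (27.6%), against 12.6% of progenitor-marker cells. The call held under every single omission.

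Pnoc, Igf1 and Chl1 were also past the fold lower. Pnoc, the precursor of nociceptin, stood at 54.9 and 136.8 CPM (log2 ratio -1.18, SD 1.31) and was lower in 9 of 10 title numbers. Igf1, a secreted growth factor, stood at 191.1 and 403 CPM (-1.04, SD 1.74, lower in 7), and Chl1, an adhesion molecule of the L1 family, at 97.7 and 213.8 CPM (-1.05, SD 2.20, lower in 8). Their ranges over title numbers overlapped. All 3 calls were less firm than that of Eomes: Pnoc lost it without title number 3, 4 or 8, Chl1 without 2, 3 or 6, and Igf1 without 1, 2, 3 or 10, where its ratio ran up to -0.66. With cells weighted equally Igf1 and Pnoc were not past the fold, nor was Igf1 with cells thinned before summing. Among cells with 0 Eomes counts all 3 lost the call, with ratios of 0.18 for Igf1, -0.70 for Pnoc and -0.97 for Chl1. In absent cells 32 of 34 Eomes cells (at least 5 counts) also held at least 5 Igf1 counts (94.1%), and 32 of 46 Igf1 cells held Eomes (69.6%). In high cells the same shares were 26 of 36 (72.2%) and 26 of 52 (50%).

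Among the other 10 of the 12 highest ratios, Abhd11, a mitochondrial hydrolase, was higher in all 10 title numbers, at 84.5 CPM (81.5 to 87.65) against 16.2 CPM (14.5 to 18.1), a log2 ratio of 1.85 (SD 0.89). Title numbers ran from 21.1 through 88.99 to 114.97 CPM and from 1.35 through 12.1 to 37.6 CPM, overlapping in part. Pspc1, a paraspeckle protein, was higher in all 10 as well, at 93.5 and 23.01 CPM (1.65, SD 1.42), but without title number 1, 2 or 8 it fell short of the share difference, as it did with at most 10% mitochondrial counts or with at least 200000 total counts. Trmt10c, a subunit of mitochondrial RNase P, stood at 41.1 and 4.82 CPM (1.79, SD 1.81, higher in 8) and kept its call under every omission. Ratios from 1.42 to 1.64 belonged to Chst15, a chondroitin sulfate sulfotransferase, Med9, a Mediator subunit, Tmem132c, Fuom, a fucose mutarotase, Acot13, an acyl-CoA thioesterase, Evc2, a ciliary protein of Hedgehog signalling, and Alad, an enzyme of haem synthesis. Each of these 7 lost the call without at least 1 title number, Chst15 without 2, 4, 5, 8 or 9 and Fuom, which fell to 0.89, without 2 or 5. Med9 lost it without 7, Tmem132c without 9, Evc2 without 2, Alad without 5, and Acot13 without 2, 3, 5 or 10.

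On the low side Fam46a had a log2 ratio of -1.80, at 6.88 and 48.7 CPM (SD 1.70, lower in 8 of 10). Cacna1h, a T-type calcium channel, stood at 8.29 and 33.9 CPM (-1.26, SD 0.93) and Gtf2ird2 at 11.9 and 54.7 CPM (-1.56), and these 3 kept their calls under every omission. Gtf2ird2 lost its call with cells matched on total counts (-1.34) or with at least 200000 counts (-1.50), and Cacna1h with cells weighted equally (-0.92). Gtf2ird2 and Fam46a lost theirs with the high side at 100 or more Pou4f1 counts, and all 3 among cells with 0 Eomes counts. Fbxl17, an F-box protein (-1.57), Lca5, the ciliary protein lebercilin (-1.33), and Phyh, a peroxisomal hydroxylase (-1.24), did not keep their calls under every omission. Nor did Dynlt3, a dynein light chain (-1.22), Zbtb44 (-1.20), Cacng3, an auxiliary subunit of AMPA receptors (-1.19), and Slc35f1 (-1.18). Among cells with 0 Eomes counts Lca5, Phyh, Dynlt3 and Cacng3 lost theirs as well. With the high side at 100 or more Pou4f1 counts Lca5 and Zbtb44 did. Without title number 10 the ratio of Slc35f1 was -0.08. Fbxl17 lost its call without 3, 4, 5, 6 or 7, Lca5 without 3, Phyh without 2 or 5, Dynlt3 without 1, 2, 4, 9 or 10, Zbtb44 without 1, 3, 7 or 10, Cacng3 without 1 or 10, and Slc35f1 without 5, 7, 9 or 10 too.

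**Figure D3:**
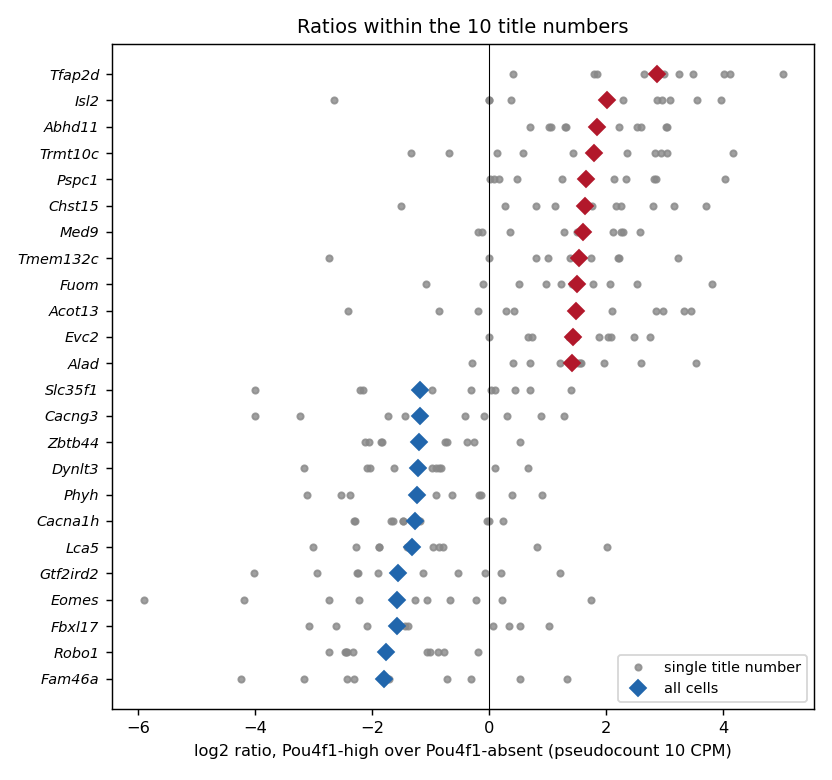
Log2 ratio of high over absent (x, pseudocount 10 CPM) for the 12 highest and 12 lowest ratios (y). Grey points are single title numbers and diamonds all cells: Tfap2d, Abhd11 and Pspc1 lie above 0 and Robo1 below 0 in all 10, whereas Eomes and Isl2 spread to both sides.

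Gene groups moved little. Over 46 transcription factors of RGC subtypes, 28 had a described level, of which 1 was past the fold higher (Tfap2d) and 1 lower (Eomes), with a median log2 ratio of -0.08 against 0.01 over all described genes. In 9 genes of Eomes and melanopsin RGCs, 4 were described and 2 lower, Eomes and Pnoc, with a median of -0.72. Opn4, melanopsin itself, was not at a described level, with 10.3 and 7.23 CPM from few cells on either side. Axon growth and cytoskeleton genes (17 described of 19) had 0 past the fold and a median of 0.03, and axon guidance receptors and ligands (22 of 37) had 1 lower and a median of 0.01.

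Cadherins and protocadherins (10 described of 21) held 1 higher gene, Cdh4 or R-cadherin, at 83.4 and 28.7 CPM (1.27, SD 1.08), higher in 9 of 10 title numbers. It kept its call under every omission, but with cells weighted equally its ratio was 0.29 and the call was lost. Synaptic vesicle and release genes (19 of 23) held 1, Cplx2 or complexin 2, at 132.3 and 54.7 CPM (1.14, SD 1.87), which fell short without title number 3 or 6 and with at most 10% mitochondrial counts. At least 5 Cplx2 counts were present in 57.6% of high and 14.9% of absent cells. Of the progenitor and cell cycle list only Mcm6, a subunit of the replicative helicase, was past the fold, and it was higher in high cells, at 48.3 and 13.7 CPM (1.30, SD 1.21), although that list summed to less there. Neurotrophic receptors (5 of 9) were all below 0 with a median of -0.25 and 0 past the fold, and hypoxia and glycolysis genes (7 of 9) had 6 above 0 and a median of 0.21.

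The genes of axon laterality did not divide as a group. Of 5 described genes on the ipsilateral list, Igf1 alone was past the fold. Slc6a4, the gene of the Cre driver, stood at 95.5 and 105.4 CPM (log2 ratio -0.13, SD 1.48), from 29.2 through 101.5 to 158.9 CPM and from 0.88 through 117.2 to 141.8 CPM over title numbers, with overlap. Its share of cells with at least 5 counts was higher in high cells, 41.5% (32.5 to 50.96) against 24.1% (15.6 to 34.5), and 36.3% against 25.4% after thinning. No order is read from that share, which goes against the level. Ephb1, the receptor of ephrin-B2 at the chiasm, had a ratio of -0.23, Zic5 of -0.05 and Zic1 of 0.57, the last higher in 10 of 10 title numbers (20.6 and 10.5 CPM, SD 0.56). Zic2 was below the described level, at 2.25 and 1.72 CPM. On the contralateral list, Isl2 was past the fold, while Nrcam (-0.24), Plxna1 (-0.27), Nrp1 (-0.01) and Igfbp5 (-0.07) were not.

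Of 10 serotonin handling genes, 4 were described, Slc6a4 among them, with 0 past the fold and a median of -0.26. Slc18a2, the vesicular monoamine transporter, was at 303.5 and 284.7 CPM (0.09), Maoa, monoamine oxidase A, at 24.1 and 34.7 CPM (-0.39) and Htr1b, a serotonin receptor, at 25.9 and 40.4 CPM (-0.49). Genes of retinal position had no member past the fold. Some neuropeptide precursors had large ratios without passing the share rule: Sst, somatostatin, at 170.6 and 39.9 CPM (1.86, SD 2.18) and Tac1, the substance P precursor, at 78.9 and 28.9 CPM (1.19, SD 1.08). For Sst, 1 cell held 17.4% of the high counts. Lmo2, a LIM-only transcriptional cofactor, was lower in 9 of 10 title numbers, at 55.5 and 120.4 CPM (-0.99, SD 0.92).

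Splitting the high side showed that several differences lay mainly at its upper end. Eomes stood at 370.96 CPM in cells with 0 Pou4f1 counts, 277.4 at 1 to 4, 130.7 at 5 to 19, 173.2 at 20 to 99 and 10.7 at 100 or more. The share of cells with at least 5 Eomes counts was 39.1%, 43.8%, 35.7% and 43.04% in the first 4 classes and 5.13% (2 of 39, exact interval 0.63 to 17.3) in the last. The low share was therefore seen at 100 or more counts of Pou4f1 and not at 20 to 99. Median totals of those last 2 classes were 274335 and 297753 counts, and their mitochondrial shares 5.31% and 5.32%.

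Igf1, Chl1 and Synm were likewise lower at 100 or more Pou4f1 counts than at 20 to 99. Igf1 was at 271.8 CPM in the 20 to 99 class and 32.7 CPM in the class of 100 or more, Chl1 at 137.2 and 20.2 CPM, and Synm, the intermediate filament protein synemin, at 206.6 and 35.8 CPM. Shares of cells with at least 5 counts were 56.96% and 17.9% for Igf1, 43.04% and 15.4% for Chl1, and 51.9% and 25.6% for Synm. Pnoc differed less, at 57.2 and 50.4 CPM, below the 136.8 CPM of the absent cells in both classes.

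Robo1 was already low in both high classes, at 8.17 and 6.396 CPM, but its 41.6 CPM at 5 to 19 counts was close to the absent level, with 18.95 CPM at 1 to 4, so its levels had no steady order. Abhd11 was lowest in the absent cells (16.2 CPM) and between 53.9 and 100.1 CPM in every other class.

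Several of the higher genes had their highest level in the same class. Tfap2d was at 41.4 CPM in the 20 to 99 class and 168.4 CPM in the class of 100 or more, with at least 5 counts in 12.7% and 46.2% of the cells (18 of 39, 30.1 to 62.8). Isl2 was at 37.4 and 95.4 CPM (15.2% and 28.2% of cells), Pou4f3 at 20.2 and 72.9 CPM (15.2% and 28.2%), and Cdh4 at 46.6 and 155.6 CPM (30.4% and 66.7%). After thinning the class of 100 or more held Tfap2d in 44.7%, Isl2 in 28.9%, Pou4f3 in 28.9% and Cdh4 in 55.3% of its cells. These classes were taken with the ratios of the same cells in view and support nothing by themselves.

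**Figure D4:**
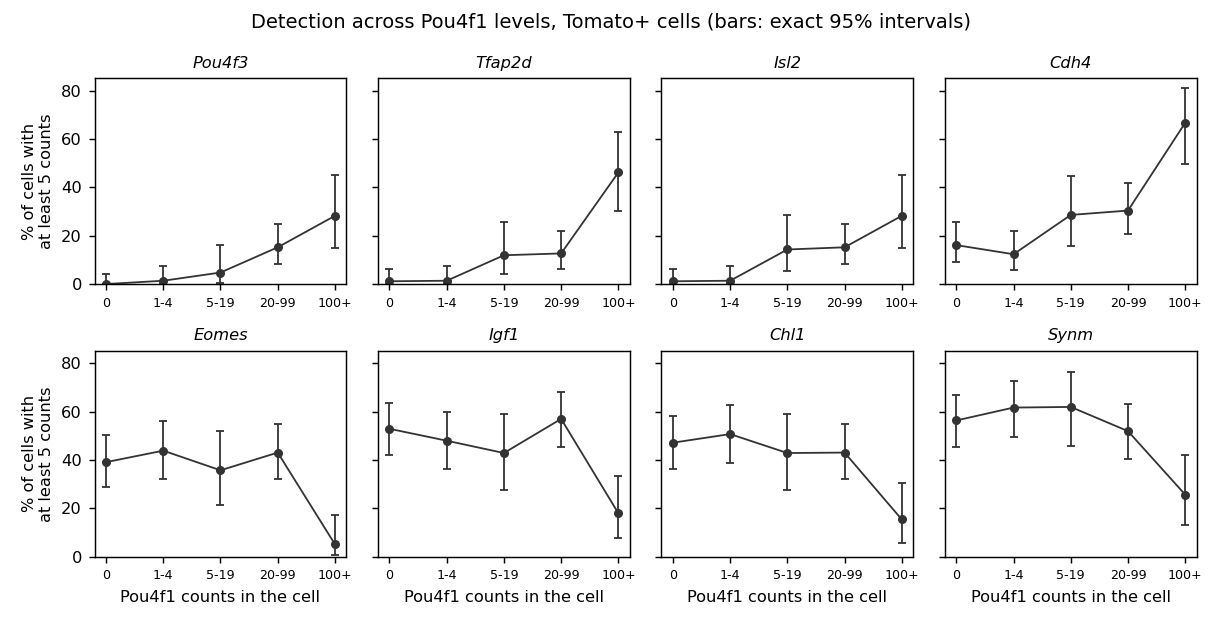
Percentage of Tomato+ cells with at least 5 counts of each gene (y) in 5 classes of Pou4f1 counts (x; 87, 73, 42, 79 and 39 cells), with exact 95% binomial intervals as bars. Tfap2d reaches 46.2% and Cdh4 66.7% in the class of 100 or more, where Eomes is at 5.13%.

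Within the high side Tfap2d and Isl2 fell mostly on different cells. Among the high cells, 28 held Tfap2d and 23 Isl2 at 5 or more counts. Both were held by 2 cells, 7.14% of the Tfap2d cells, against Isl2 in 19.5% of all high cells. Pou4f3 shared more with Tfap2d: 15 cells held both, 65.2% of the 23 Pou4f3 cells and 53.6% of the 28 Tfap2d cells. Pou4f3 and Isl2 met in 4 cells, 17.4% of the Isl2 cells, near the 19.5% of all high cells with Pou4f3. Sst was present with Tfap2d in 13 cells, 43.3% of 30 Sst cells and 46.4% of the Tfap2d cells, against 25.4% of all high cells. Eomes, in 36 high cells (30.5%), met Tfap2d in 3, Isl2 in 4 and Pou4f3 in 5, or 10.7%, 17.4% and 21.7% of those cells. In the class of 100 or more, 27 of 39 cells (69.2%) held Tfap2d or Isl2. Other pairs came near that share there, with 64.1% holding Sst or Isl2 and 61.5% Sst or Tfap2d. All cells of a side share 1 pool, and these joint counts were chosen after their values had been seen.

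Tomato- cells that passed the RGC marker rule gave the same division outside the label. There were 84 with at least 20 Pou4f1 counts and 46 with 0. Their absent side was less purely ganglion-like: 22 of 46 absent and 14 of 84 high cells held 4 or more progenitor genes, progenitor and cell cycle markers summed to 3525 and 816 CPM, and median totals were 258998 and 362721 counts. In Tomato- cells 6.49% of 7763 genes were past the fold higher and 3.13% lower. Of 63 genes higher in Tomato+ high cells, 57 were described in Tomato- cells, 34 in the same direction (59.6%, against 51.6% of all genes described in both), and 8 were past the fold (14.04% of these 57 and 1.61% of the Tomato- list, against 6.95% of all). The 8 were Cacng5, Chst15, Ddah1, Golga7b, Isl2, Lysmd3, Mdga2 and Vamp4. Of 20 lower genes, 13 kept their direction (65%, against 48.4% of all) and 0 were past the fold, against 2.07% of all.

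Isl2 and Pou4f3 divided Tomato- cells much as they did Tomato+ cells. Isl2 stood at 67.5 and 6.41 CPM (2.24), higher in 8 of 10 title numbers, and Pou4f3 at 32.6 and 0.39 CPM (2.03), higher in 8 and lower in 0. Of 14 Tomato- high cells with Pou4f3, 11 also held Tfap2d (78.6%), which were 57.9% of the 19 Tfap2d cells. Of 25 Isl2 cells, 2 held Tfap2d (8%), against 22.6% of all Tomato- high cells. Tfap2d itself had a ratio of 0.50, at 92.1 and 62.5 CPM. When Tomato- cells with 4 or more progenitor genes were left out, a step added after the values were seen, 70 high and 24 absent cells remained and the ratio of Tfap2d was 1.80 (106.5 and 23.5 CPM), that of Isl2 1.71 and that of Cdh4 1.29, up from -0.08.

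Eomes was rare on both Tomato- sides, at 37.8 and 65.4 CPM (-0.66), with at least 5 counts in 9 of 84 and 4 of 46 cells. Robo1 had a ratio of -0.65 in all Tomato- RGC-marker cells and -0.06 without the progenitor-marker cells. Abhd11 had ratios of 0.85 and 0.45, and was higher in 9 of 10 title numbers before that step. Other genes went both ways in all Tomato- RGC-marker cells. Of those lower in Tomato+ high cells, Igf1 was at -0.45, Chl1 at 0.15 and Pnoc at 0.46. Of those higher, Pspc1 was at 0.80 and Trmt10c at -0.41. The difference between the labels was not tested, since each side is 1 pool.

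**Figure D5:**
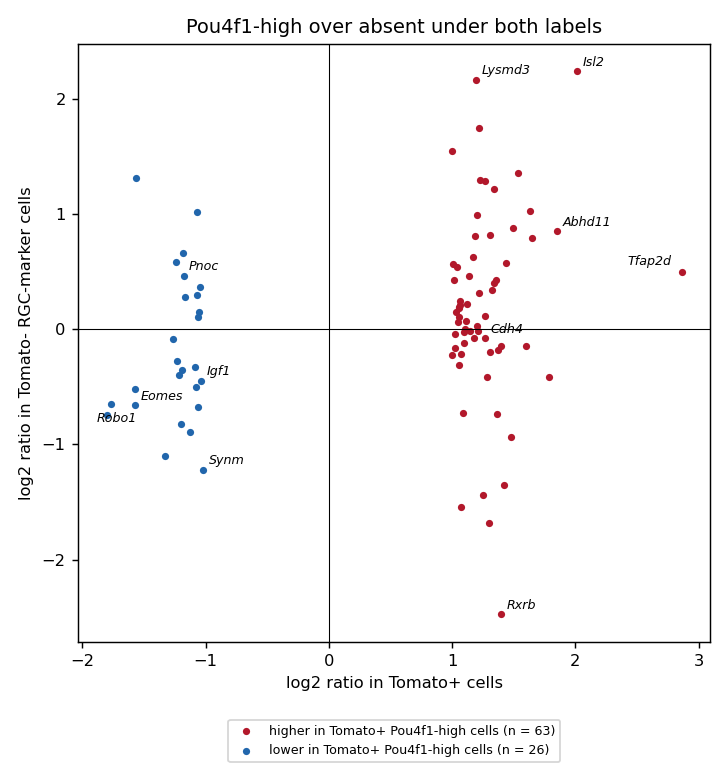
Log2 ratio of Pou4f1-high over absent in Tomato- RGC-marker cells (y) against that in Tomato+ cells (x) for the 89 genes past the fold in Tomato+ cells. Isl2 lies near 2 on both axes, whereas Tfap2d is at 2.86 in Tomato+ and 0.50 in Tomato- cells.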

How the data were processed

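The deposited table holds whole-number counts per gene and cell for 800 cells. Libraries were SmartSeq2 per the labels. Column headers end in "umi", but whether counts are molecules or reads is not stated. Seurat 2.3, R 3.4.4 and mm10 are named in the submitters' processing notes, while the aligner, counter and annotation are not given in the sources used here. One column belongs to no cell in the labels and was left out, and 93 repeated gene rows stayed in totals only.

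Counts were summed per side and divided by the side total (34742802 and 20336168 counts) with Python 3.11, numpy 2.4.6 and pandas 2.3.3, and intervals are exact (scipy 1.17.1). As alternatives the side totals were scaled by TMM with edgeR 4.0.16, or by DESeq2 1.42.0 size factors from medians of ratios (R 4.3.3). The steps were tested on simulated data. Named genes are Pou4f1, described members of the POU4F and Islet, ipsilateral, contralateral and serotonin lists, the 12 highest and 12 lowest ratios past the fold and the 3 highest and 3 lowest members of every other list, of which the text gives a part. Synm, Pou4f3 and the 8 genes shared with Tomato- cells were named after their values were seen. Members, lists and most alternatives were chosen with earlier results of these data known. Gene positions are those of GENCODE vM21 and RefSeq on GRCm38, the assembly of mm10.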

Additional observations from a re-analysis of the deposited data

How the results depend on the processing

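Shares of described genes past the fold (0.811% higher, 0.335% lower) moved with the settings. They were 1.49% and 0.58% with a pseudocount of 1 CPM and 0.0258% and 0.0129% with 50 CPM. At 50 CPM only 2 higher genes, Tfap2d and Abhd11, and 1 lower gene, Eomes, were left. Every other call was lost, also those that held under each omission, such as Robo1 (-0.79), and that of Isl2 (0.92). Matching cells on total counts gave 1.48% and 0.88%, at most 10% mitochondrial counts 1.26% and 0.504%, a described level of 20% 0.538% and 0.297%, and at least 200000 counts, chosen after seeing the data, 1.36% and 0.611%. With the high side at 5 or more Pou4f1 counts 0.167% were lower, and at 100 or more, with only 39 high cells, 2.44% were higher and 2.34% lower. Among cells with 0 Eomes counts, 58 high and 36 absent, the shares were 3.74% and 2.70%. Both settings left far fewer cells, and the part of cell number in these larger shares was not tested. Leaving out each title number in turn gave 0.901% to 1.25% higher (97 genes without title number 9 against 63) and 0.322% to 0.54% lower (42 without title number 7 against 26). TMM (63 and 26 genes), medians of ratios (61 and 28), thinning before summing (66 and 30) and the RGC marker rule (64 and 30) moved the counts less. Similar counts did not mean the same genes. Of the 63 and 26 genes, thinning kept 48 and 20 and the RGC marker rule 59 and 25. Cells weighted equally gave 77 and 26 genes and kept 52 and 14. Single omissions of a title number kept 44 to 55 and 14 to 23. Igf1 changed direction among cells with 0 Eomes counts (0.18). For the moves named here the cause was not tested. Of 4116 values of named genes under the alternatives, 4091 moved by less than the SD over title numbers and 24 by more. The remaining 1 changed sign, which was counted only for genes past the fold. Genes not past the fold could change sign within the SD, as Slc6a4 did with cells weighted equally (-0.13 to 0.14). That SD is wide, since each title number holds few cells of a side. It exceeded the size of the ratio itself for Isl2 (2.12 against 2.01) and Eomes (2.22 against -1.57). Staying within it therefore says little about stability, and many calls were lost under the same alternatives. No paired analysis was possible because each side is part of 1 pool and no label pairs its cells. Depth limits the absent cells most, 16 of 87 of them lying below 101211 counts.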
